A study of Xenopus tropicalis with 11 samples.

Results

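Binding of the homeodomain transcription factor Otx2 was set against binding of the coactivator p300 in Xenopus tropicalis embryos at the early gastrula, with 166593 Otx2 peaks and 151050 p300 peaks out of 863687 distinct peaks in the 7 peak lists of the study. The members were all distinct intervals of both lists that lie on the 10 chromosomes, which hold 85.4% of the Otx2 list and 83.3% of the p300 list. Peaks on unplaced scaffolds were left out. An interval is repeated in the p300 list once for each of its summits, the points of highest signal, so the 151050 intervals carry 179988 summits, and 14.1% of the intervals carry 2 or more. The Otx2 list is in the broad-peak layout of the peak caller MACS2 and gives no summits.

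Both libraries were made from whole fixed embryos of the Nigerian A strain at stage 10.5. Each chromatin sample came from 2000 to 3000 embryos, and no genotype or treatment is labelled. The Otx2 library used an antibody credited to an earlier study and shares its input control with the Lim1 (Lhx1) library. The p300 library used a commercial antibody and shares its input with the TLE library. The other peak lists used here are those of the homeodomain factors Lim1 and Gsc (goosecoid), the corepressor TLE, and the histone marks H3K4me1 and H3K27ac. There was 1 library per antibody, so that no test between conditions is possible, and the intervals given are exact 95% intervals for counting error alone. Peak lists do not give the read depth. Because whole embryos were used, an Otx2 peak and a p300 peak at one locus may stem from different cells, and a weak peak in few cells cannot be told apart from a weak peak in many.

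Otx2 binds DNA through a homeodomain of the bicoid type and is needed for the head. In the gastrula it is active in the head organizer, the dorsal tissue that induces anterior structures, and in the anterior ectoderm. p300 does not bind DNA itself. Transcription factors recruit it to enhancers and promoters, where it acetylates histones, lysine 27 of histone H3 among them, and its binding is widely used to find enhancers. H3K4me1 marks enhancers whether active or not, and TLE (Groucho) is recruited by repressors and counteracts activation.

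About 1 Otx2 peak in 2 met a p300 peak. Of the 166593 Otx2 peaks, 84811 shared at least 1 bp with a p300 peak, 50.9% (95% interval 50.7 to 51.1). Counted from the other list, 90422 of 151050 p300 peaks met an Otx2 peak, 59.9% (59.6 to 60.1). The shared sequence came to 14.7 Mb, which is 47.9% of the 30.7 Mb covered by Otx2 peaks and 55.6% of the 26.5 Mb covered by p300 peaks. Meetings were mostly 1 to 1. A single p300 peak was met by 47.4% of all Otx2 peaks, a pair of p300 peaks by 3.22%, and 3 or more by 0.304%. From the p300 side, 59.3% met a single Otx2 peak and 0.551% met a pair. These shares depend on the thresholds. With both lists limited to a deposited −log10 q of at least 10, 74.9% of 8897 Otx2 peaks and 13.9% of 49137 p300 peaks met the other list. That cut kept 5.34% of the Otx2 peaks and 32.5% of the p300 peaks. The lists differ in layout, and whether their q values are on a like scale was not tested. As deposited, the Otx2 list goes down to a lower −log10 q than the p300 list. The shares over the full lists thus compare lists with different cut-offs. The same 49137 p300 peaks met the full Otx2 list in 83.1% (82.8 to 83.4) of cases. With the p300 list limited to its 50% of highest fold, 33.1% of all Otx2 peaks met it.

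The overlaps were seldom glancing. The median overlap was 126 bp (quartiles 81 and 208), and the median pair shared 99.5% of its shorter peak. Among the 91293 overlapping pairs, the Otx2 peak lay within the p300 peak in 27.4%, the p300 peak within the Otx2 peak in 22.1%, and the pair overlapped in part in 50.5%. A p300 summit lay inside 46.7% (46.5 to 46.9) of Otx2 peaks, and 101479 of the 179988 summits, 56.4% (56.2 to 56.6), lay inside an Otx2 peak. The remaining 7026 Otx2 peaks met a p300 peak with its summit just beyond their ends. These were narrow, with a median width of 96 bp, and their nearest summit lay at a median of 20 bp from the edge.

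The p300 summits were far denser inside Otx2 peaks than between them. Inside, there were 3.30 summits per kb (95% Poisson interval 3.28 to 3.32). In the 1242 Mb between neighbouring Otx2 peaks there were 0.0632 per kb, 52.2 times fewer. The value inside is a mean over whole peaks, and the ends of the peaks held fewer summits (below). Outside, the density was lower from the first zone on. It was 0.561 per kb in the first 50 bp outside, 0.283 per kb from 51 to 100 bp and 0.107 per kb from 251 to 500 bp. It then went down slowly with distance, through 0.0679 per kb from 501 to 1000 bp and 0.0439 per kb from 2001 to 5000 bp, to 0.0208 per kb (0.0194 to 0.0223) beyond 20000 bp. Every zone had a lower density than the zone before it, and no 2 neighbouring intervals overlapped. Uneven mappability and gaps in the assembly were not taken out of the lengths.

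**Figure D1:**
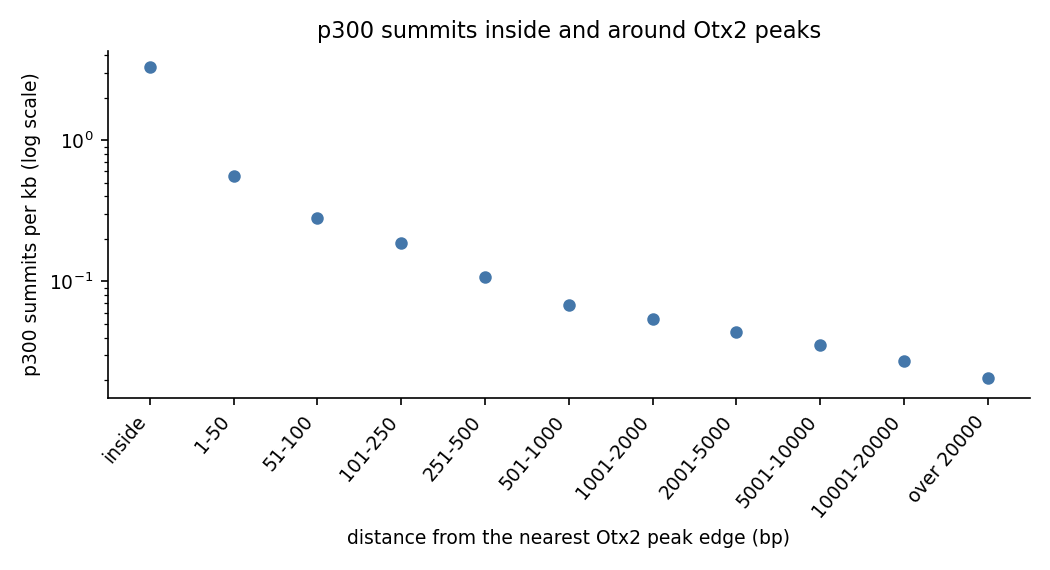
p300 summits per kb inside Otx2 peaks and in zones of growing distance from the nearest Otx2 peak edge, on a log scale. Bars, mostly smaller than the points, are exact 95% Poisson intervals. Density goes from 3.30 per kb inside to 0.0208 per kb beyond 20000 bp.

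The share of Otx2 peaks with p300 was higher in every wider class of the list. Otx2 peaks were put into 10 classes by width at every 10% of the list. Equal widths were kept together, so the classes hold 12610 to 21683 peaks. The narrowest class holds the 21683 peaks of exactly 66 bp, the smallest width in the list, and 20.1% (19.6 to 20.7) of these met p300. The share was 31.0% at 67 to 77 bp, 36.5% at 78 to 94 bp, 41.6% at 95 to 115 bp, 44.2% at 116 to 141 bp and 48.4% at 142 to 172 bp. It went on to 55.0% at 173 to 211 bp, 65.9% at 212 to 267 bp, 80.8% at 268 to 354 bp and 89.8% (89.3 to 90.2) at 355 bp and above. No interval of a class reached that of the next. The share over all classes was the 50.9% given above. With the 50% of p300 peaks of highest fold, 9.31% of the peaks of 66 bp and 74.6% of those of 355 bp and above met p300. The 8897 Otx2 peaks at a −log10 q of at least 10 were cut into width classes of their own. The p300 peaks, too, were limited to a −log10 q of at least 10. Of the 911 narrowest Otx2 peaks, 74 to 133 bp wide, 50.5% met one. Of the 882 widest, 531 to 1824 bp wide, 96.5% did.

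Wider peaks also held more summits. The mean was 0.137 summits per peak at 66 bp, 0.397 at 116 to 141 bp, 0.760 at 212 to 267 bp, 1.07 at 268 to 354 bp and 1.84 (SD 1.19 over 16525 peaks) in the widest class. A pair or more of summits was held by 60.3% of the widest peaks and by 0.611% of those of 116 to 141 bp. With 1 summit per p300 interval, that of highest fold, the mean in the widest class was 1.14. Over the whole list, 53.3% of Otx2 peaks held no summit, 36.1% held 1, 8.07% held 2, 1.83% held 3 and 0.695% held 4 or more.

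Per kb of Otx2 peak, however, the summits were spread almost evenly over the widths. The density was 3.30 summits per kb at 67 to 77 bp, 3.47 at 78 to 94 bp, 2.98 at 173 to 211 bp, where it was lowest among the classes above 66 bp, and 3.66 in the widest class. Only the peaks of 66 bp stood lower, at 2.07 per kb. The widest class thus had 13.5 times as many summits per peak as the narrowest, and 1.77 times as many per kb.

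**Figure D2:**
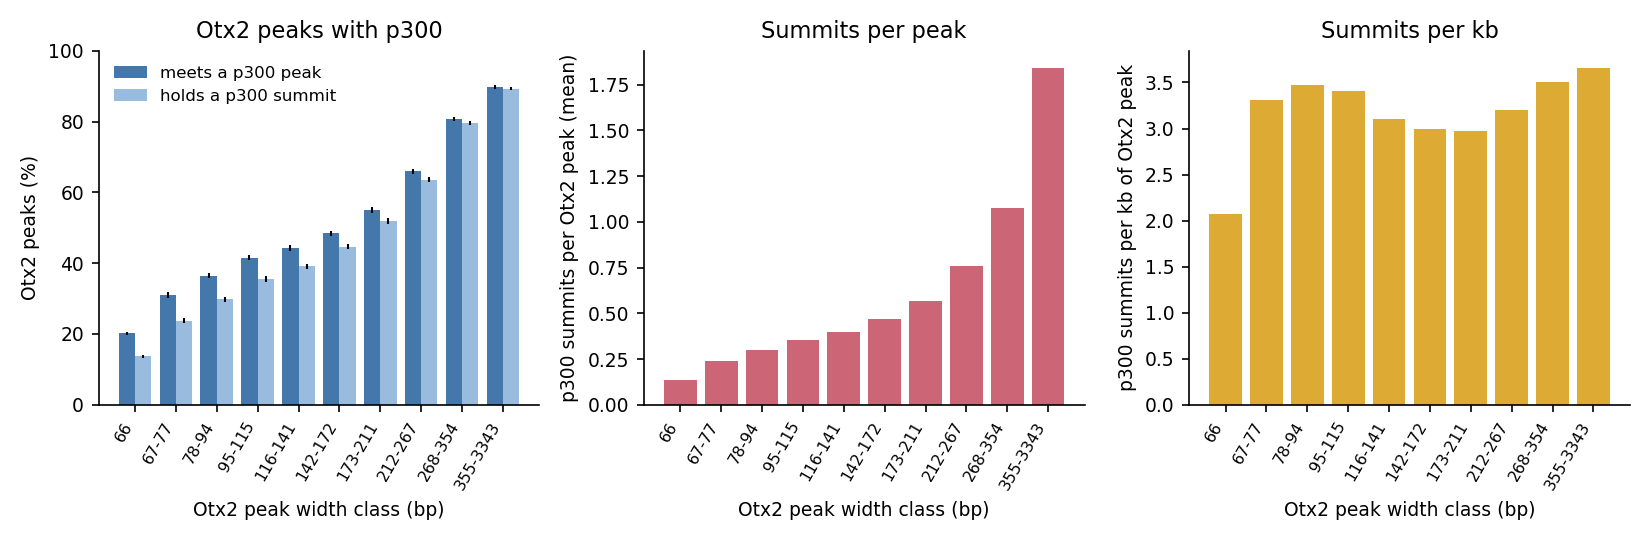
Otx2 peaks in classes of width (bp, horizontal axis). Left, the percentage that meet a p300 peak or hold a p300 summit, with exact 95% intervals, middle, the mean number of p300 summits per peak, and right, summits per kb. Share and number are higher in each wider class, from 20.1% and 0.137 to 89.8% and 1.84, while summits per kb lie between 2.98 and 3.66 above 66 bp.

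Strength went with p300 more steeply than width did on the per-kb scale. The deposited fold enrichment, which MACS2 computes as ChIP signal over local background, had a median of 4.12 (quartiles 3.40 and 5.26) in Otx2 peaks with p300 and of 3.34 (3.003 and 3.85) in those without. With the list cut into 10 classes of Otx2 fold in the same way, in the lowest class 27.5% (26.8 to 28.2) of peaks met p300 and the density was 1.76 summits per kb. In the highest class 86.4% (85.8 to 86.9) met p300 and the density was 4.31 per kb. Both values were higher in each next class of fold. Whether the fold of an Otx2 peak is a mean over its width or its strongest value was not tested. Folds of wide and narrow Otx2 peaks may therefore not be on a like scale.

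Width and fold were each tied to p300 with the other held within a class, but in the lowest class of fold the share fell over part of the widths. Among Otx2 peaks of 116 to 141 bp, the share with p300 went from 24.8% in the lowest class of fold to 67.6% in the highest. Among those of 268 to 354 bp it went from 52.5 to 95.3%, with a low of 48.4% in the second class. In the fifth class of fold it went from 21.5% at 66 bp to 79.8% in the widest peaks. The share was 98.0% of the 3729 peaks in the highest classes of both measures and 17.8% of the 3085 in the lowest classes of both. The ladder over fold was weakest in the narrowest peaks. At 66 bp the share was 17.3% in the second class and 25.7% in the eighth, and at 67 to 77 bp it was 37.3% in the lowest class and 25.6% of 164 peaks in the highest.

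**Figure D3:**
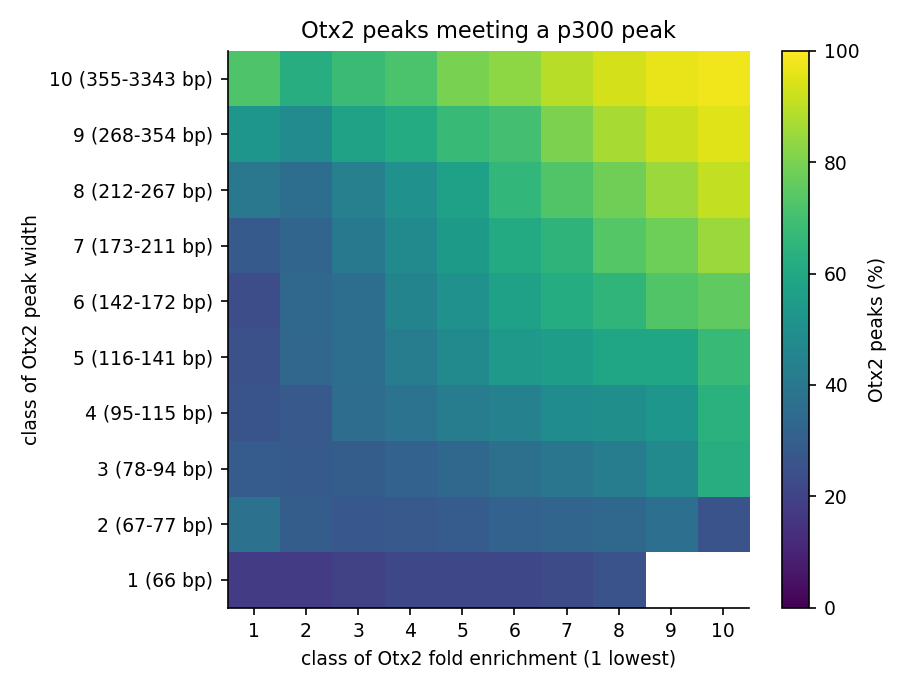
Percentage of Otx2 peaks that meet a p300 peak, in classes of Otx2 fold enrichment (horizontal) and of Otx2 width (vertical). Fields with under 100 peaks are left white. The percentage is 17.8% at the lower left and 98.0% at the upper right.

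Where both were present, strong Otx2 peaks tended to have strong p300 peaks. Spearman's rho between the fold of an Otx2 peak and the highest fold among the p300 peaks it met was 0.439 over 84811 peaks. It was 0.408 over the 60121 Otx2 peaks with a single p300 summit. Within classes of width it was 0.150 at 66 bp, 0.347 at 78 to 94 bp, 0.284 at 116 to 141 bp, 0.478 at 268 to 354 bp and 0.461 in the widest peaks, so it was not higher in every wider class. These values describe regions of 1 pair of libraries, which are not independent of each other.

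The place of the p300 summit inside the Otx2 peak depended on the width of the peak. Each Otx2 peak was cut into 3 parts of equal length. Over all 101479 inside summits, 38.8% (38.5 to 39.1) lay in the middle part, and the median distance from its centre was 48.5 bp. Narrow peaks had the summit close to their centre. At 95 to 115 bp, 58.0% (56.7 to 59.3) of the summits lay in the middle part, with a median distance from the centre of 14.0 bp, where an even spread would give 26.2 bp. The share was 57.8% at 78 to 94 bp, 54.6% at 67 to 77 bp and 47.3% at 66 bp.

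Above these widths the crowding at the centre was lost. The middle part held 49.2% of the summits at 116 to 141 bp, 43.1% at 142 to 172 bp and 38.5% at 173 to 211 bp. It held 32.8% (32.0 to 33.6) at 212 to 267 bp and 31.1% (30.4 to 31.8) at 268 to 354 bp, where an even spread would put 1 summit in 3. In the widest class it was 33.6%. For lone summits, the shares in the classes from 212 to 267 bp upward were 38.9, 34.0 and 45.8%. When peaks were cut into 10 equal parts instead, the first and the last part, next to the ends, held 5.99 and 5.45% of all inside summits.

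Counted around the Otx2 centre, the single hump of the narrow peaks became a pair of humps. At 95 to 115 bp the density was highest in the 25 bp on either side of the centre, at 5.13 summits per kb, against 0.198 per kb at 1000 to 1500 bp from the centre, 25.8 times fewer. At 212 to 267 bp the centre had 3.11 per kb, and the highest bins lay 62.5 bp to either side, at 4.28 and 4.19 per kb. At 268 to 354 bp the centre had 3.30 per kb and the highest bins, 87.5 bp to either side, had 5.36 and 5.05 per kb. In the widest peaks the profile was flat near the centre, at 3.75 per kb, and still 1.07 per kb at about 300 bp.

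**Figure D4:**
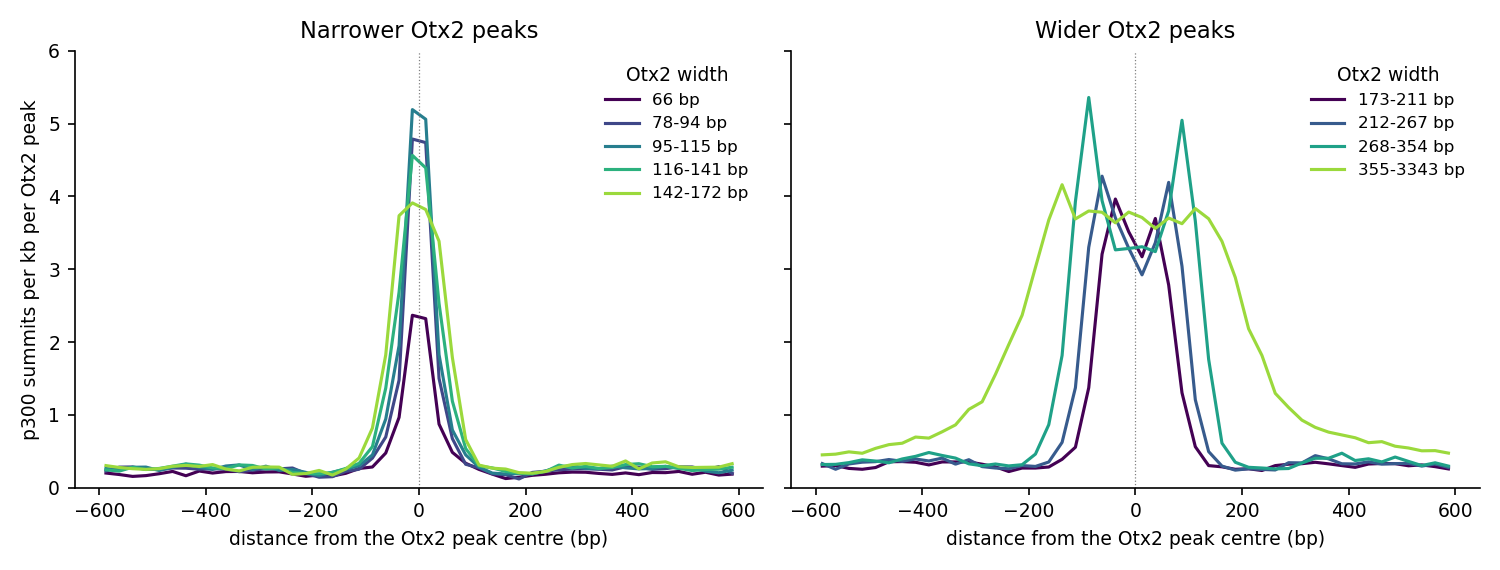
p300 summits per kb per Otx2 peak, in bins of 25 bp by distance from the centre of the Otx2 peak. Lines are classes of Otx2 width, the narrower ones at left and the wider ones at right. The class of 67 to 77 bp is not drawn. The hump at the centre, 5.13 per kb at 95 to 115 bp, gives way to a pair of humps 87.5 bp to either side at 268 to 354 bp.

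Peaks with a pair of summits had the fewer of them near the centre, but lone summits lay off centre too. In Otx2 peaks of 268 to 354 bp that held exactly 2 summits, 27.8% (26.8 to 28.8) of 8248 summits lay in the middle part. In peaks of the same widths with 1 summit it was 34.0% (33.1 to 35.0) of 8958, with a median distance from the centre of 71.0 bp (quartiles 37 and 95). In the narrower peaks of 173 to 211 bp the corresponding shares were 12.9 and 43.9%. Over all Otx2 peaks, 5% of neighbouring summits were closer than 87 bp, which is longer than the middle part of these narrower peaks. A pair thus has little room to lie wholly in that part, and how much of the low share follows from this was not tested. Of the lone summits of the widest peaks 45.8% lay in the middle part, at a median of 78.5 bp from the centre.

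The spacing of summits that shared an Otx2 peak varied with the width of that peak. Over 23694 neighbouring pairs the median spacing was 155 bp (quartiles 118 and 217), and 5% of the pairs were closer than 87 bp. Where exactly 2 summits were present, the median was 151 bp. It was 125 bp in Otx2 peaks of 212 to 267 bp, 138 bp at 268 to 354 bp and 179 bp in the widest class, so the spacing was larger where there was more room. In Otx2 peaks with 2 or more summits, the summit of highest fold lay in the middle part in 30.4% (29.7 to 31.0) of cases and the others in 26.7% (26.1 to 27.2).

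The 81782 Otx2 peaks without p300 were mostly not near misses. The distance from their edge to the nearest p300 summit had a median of 3108.5 bp (95% interval 3073 to 3144), quartiles of 1139 and 7061 bp, and a 90th percentile of 13372 bp. A summit lay within 250 bp of 4.90% of them, within 1000 bp of 22.6% and within 5000 bp of 63.9%. The median was 7185 bp with both lists at a −log10 q of at least 10 and 5612 bp with the 50% of p300 peaks of highest fold. The nearest summit lay outside every Otx2 peak in 52.9% of cases. These peaks were narrower than those with p300, with median widths of 104 and 197 bp. The distance hardly varied with width above 66 bp, with medians from 2826.5 bp at 78 to 94 bp to 3338 bp in the widest class, and 3487 bp at 66 bp.

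The state of one Otx2 peak was loosely tied to that of its neighbour. After a peak with p300, the next Otx2 peak along the chromosome met p300 in 55.3% (55.0 to 55.7) of cases, and after a peak without p300 in 46.3% (46.0 to 46.7). Otx2 peaks with p300 had their next Otx2 peak at a median of 1751 bp, and those without at 2344 bp.

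Otx2 peaks with p300 met each of the other 5 lists more often than Otx2 peaks without. TLE was met by 68.0% (67.7 to 68.3) of those with p300 and 29.9% (29.5 to 30.2) of those without. The corresponding shares were 42.1 and 11.3% for H3K4me1, 24.5 and 6.97% for H3K27ac, 25.3 and 6.91% for Lim1, and 11.2 and 2.23% for Gsc. None of the other 5 lists was met by 20.1% of the Otx2 peaks with p300 and by 56.7% of those without. TLE and p300 share an input library, and wider peaks meet more of any list.

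Within classes of width, these gaps were smaller in the narrow peaks. Each of the 5 lists was met more often with p300 than without in 10 of 10 classes of width and in 10 of 10 classes of fold. For H3K27ac the gap was 5.77 points in the class where it was smallest and 36.1 points in the widest class, where 53.8% of the peaks with p300 and 17.7% of those without met the mark. For TLE the gap ran from 11.7 to 38.7 points and for H3K4me1 from 14.1 to 44.9 points. The widest class is open-ended, from 355 to 3343 bp, so width is held only loosely there. In that class, peaks with no p300 summit (median width 416 bp) met H3K27ac in 18.4% of cases. Those with 1 summit (415 bp) did so in 35.0%, and those with 4 or more (762.5 bp) in 84.2%.

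The number of p300 summits went with the marks as well. The share meeting H3K27ac was 7.65% for Otx2 peaks with no summit, 18.2% with 1, 42.2% with 2, 68.0% with 3 and 84.2% with 4 or more. For H3K4me1 these shares were 12.5, 36.6, 62.0, 81.0 and 90.4%, and for Lim1 7.24, 20.2, 42.4, 60.6 and 79.8%. The median Otx2 width over the same classes was 103, 172, 337, 523 and 762.5 bp. The median fold was 3.34, 4.08, 4.72, 4.77 and 4.58, and whether the larger widths lower it was not tested. Among Otx2 peaks of 268 to 354 bp, where the median width was 300 to 323.5 bp in all classes of number, H3K27ac was met by 12.8% (11.7 to 13.9) with no summit, 20.6% (19.8 to 21.5) with 1, 34.7% (33.2 to 36.2) with 2 and 35.7% (30.0 to 41.8) of 266 peaks with 3. The last 2 intervals overlap. TLE at the same widths was met by 56.3, 87.3, 91.1 and 92.9%.

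Among Otx2 peaks without p300, the histone marks depended on how far the nearest p300 summit was, and TLE did so much less. H3K27ac was met by 20.1% (18.8 to 21.3) of the 4010 peaks with a summit within 250 bp, 13.7% of the 14433 with one at 251 to 1000 bp and 4.75% of the 33782 at 1001 to 5000 bp. It was met by 4.28% (3.64 to 4.99) of the 3576 peaks more than 20000 bp from any summit. H3K4me1 went from 29.2 through 22.2 and 8.36 to 5.56% over the same classes, and Lim1 from 12.5 to 5.62%. TLE was met by 29.1, 31.7, 31.8 and 27.2%. Gsc ranged from 1.66 to 2.67%.

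Width and Otx2 fold varied little along with this distance. The median width was 100 to 104 bp and the median fold 3.26 to 3.42 in all 5 distance classes. Among the 33435 Otx2 peaks of 116 to 172 bp alone, H3K27ac was met by 21.7% (18.9 to 24.7) within 250 bp of a summit and by 3.61% (2.43 to 5.15) beyond 20000 bp, and TLE by 35.0 and 33.0%. At these widths, 16.3% (15.8 to 16.9) of the peaks that met p300 themselves met H3K27ac, less than the 21.7% of those with a summit close by, whereas TLE was met by 59.8%. H3K27ac and H3K4me1 peaks are wider than Otx2 peaks, with medians of 276 and 363 bp against 141 bp, and the part of their width in these shares was not tested.

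**Figure D5:**
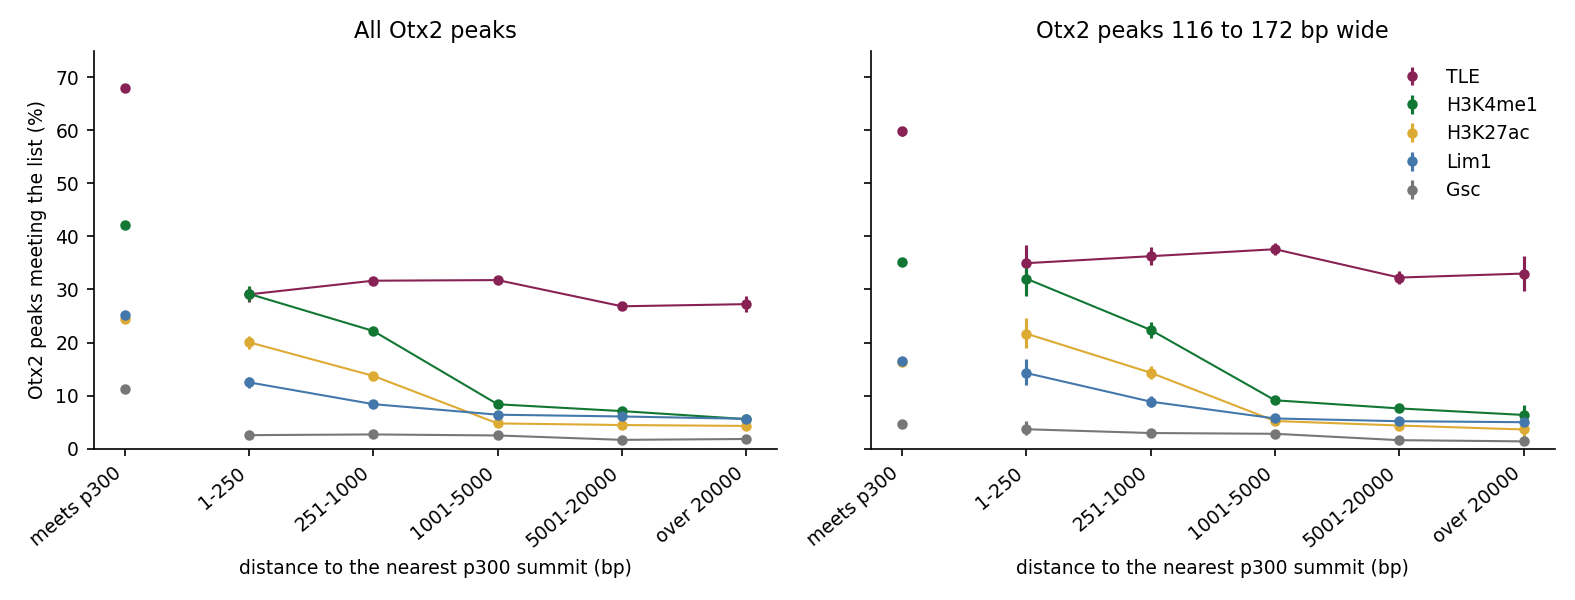
Percentage of Otx2 peaks that meet a TLE, H3K4me1, H3K27ac, Lim1 or Gsc peak, by whether they meet p300 and, for those that do not, by distance to the nearest p300 summit. Bars are exact 95% intervals, all Otx2 peaks are at left and those of 116 to 172 bp at right. H3K27ac goes from 20.1% within 250 bp to 4.28% beyond 20000 bp, while TLE stays between 26.8 and 31.8%.

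Seen from p300, strong peaks met Otx2 more often, up to a plateau. In the lowest class of p300 fold 40.8% (40.001 to 41.6) met an Otx2 peak, in the fifth 53.2%, in the eighth 79.2%, in the ninth 83.4% (82.8 to 84.0) and in the highest 83.1% (82.5 to 83.7). The intervals of the highest 2 classes overlap. Stronger p300 peaks were also wider, with median widths of 99 bp in the lowest class, 193 bp in the eighth and 242 bp in the highest. The share was not examined with p300 width held. The 60628 p300 peaks without Otx2 lay at a median of 1602 bp (1578 to 1627) from the nearest Otx2 peak. This distance was 877 bp in the lowest class of p300 fold and 2792 bp in the highest, so that the weak p300 peaks without Otx2 lay nearer to Otx2 than the strong ones.

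The strong p300 peaks outside Otx2 met few other lists. In the highest class of p300 fold, the 2549 peaks without Otx2 met none of the other 5 lists in 87.2% (85.8 to 88.4) of cases. Their median p300 fold was 12.4. Of the 12549 with Otx2, with a median fold of 12.2, 25.6% (24.9 to 26.4) met none. TLE was met by 2.63 and 68.7% of the 2 sets, H3K4me1 by 5.61 and 58.2%, and H3K27ac by 3.37 and 43.3%. Over all p300 peaks without Otx2, those of every strength, H3K27ac was met by 14.1%, H3K4me1 by 21.3% and TLE by 17.6%, and 58.7% met none. The median widths in the highest class were 143 bp without and 282 bp with Otx2. With a −log10 q of at least 10 instead, 72.5% of 8300 p300 peaks without Otx2 and 16.1% of 40837 with it met none. At that cut TLE was met by 11.4 and 76.3%, H3K4me1 by 14.8 and 55.3%, and H3K27ac by 8.86 and 35.5%. The set in the highest class of fold was singled out after its values were seen.

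The strong Otx2 peaks outside p300 were few and met each of the other lists less often than the strong Otx2 peaks with p300. Of the 8897 Otx2 peaks with a deposited −log10 q of at least 10, 92.0% (91.5 to 92.6) met p300 and 708 did not. Of these 708, 78.7% (75.5 to 81.6) met TLE and 31.8% met Gsc, whereas 14.1% met Lim1, 9.60% H3K4me1 and 4.24% (2.88 to 5.99) H3K27ac. Of the 8189 with p300, 93.9% met TLE, 40.9% Gsc, 52.9% Lim1, 56.6% H3K4me1 and 33.5% H3K27ac. The median Otx2 fold was 7.83 without p300 and 7.42 with it, and the median width 153 and 295 bp. These sets, too, were chosen after their values were seen.

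The regions named next were picked by rules on fold, on the number of summits and on distance. Coordinates are those of the lists, counted from 1, on a genome build that is not given in the sources used here, so no gene, exon or intron is assigned. The strongest joint regions were the 6 Otx2 peaks with the highest value for the lower of their 2 fold percentiles. The first, on chromosome 7 at 89101856 to 89102024, had an Otx2 fold of 19.2, the highest of the list, and a p300 fold of 34.4, with the summit 4 bp from the Otx2 centre. The region on chromosome 9 at 80295847 to 80296025 had folds of 15.4 and 26.6 and its summit 1 bp from the centre.

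A further pair of regions had the same form. On chromosome 10 at 31842132 to 31842293 the folds were 13.9 for Otx2 and 29.3 for p300, and on chromosome 1 at 37886071 to 37886315 they were 11.7 and 30.2, with summits 8.5 and 5 bp from the centre. In the remaining 2 the summit lay farther off. It was 33.5 bp from the centre on chromosome 6 at 133446949 to 133447194, where the folds were 11.4 and 26.0, and 110.5 bp on chromosome 1 at 68124627 to 68125042, where they were 10.5 and 30.7. Each of the 6 had a single p300 summit and also met TLE and H3K4me1. Of the 8189 Otx2 peaks with p300 and a −log10 q of at least 10, 93.9% met TLE and 56.6% H3K4me1. The regions on chromosomes 6, 7 and 9 met all of the other 5 lists. Of all Otx2 peaks with p300, those of every strength, 2.73% did so.

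The Otx2 peaks with most p300 summits were wide and of modest deposited fold. Whether their fold is a mean over the whole width was not tested, so it is not read as weak Otx2 binding. On chromosome 8 at 97878168 to 97880832, a peak of 2665 bp with an Otx2 fold of 3.20 held 15 summits from 7 p300 peaks. On chromosome 4, a peak of 2216 bp at 49135753 to 49137968 with a fold of 3.83 held 13 summits. Another on chromosome 4, at 72497504 to 72500846, was the widest of the list at 3343 bp, had a fold of 2.71 and also held 13. All 3 met each of the other 5 lists. Of all Otx2 peaks with p300, with a median width of 197 bp, 2.73% did so. Otx2 peaks with 4 or more summits had a median width of 762.5 bp. Of these, 95.1% met TLE, 90.4% H3K4me1, 84.2% H3K27ac, 79.8% Lim1 and 43.7% Gsc.

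The strongest Otx2 peaks without p300 had Lim1 in common. They lay on chromosome 5 at 98938035 to 98938232 (Otx2 fold 18.8), on chromosome 1 at 29514008 to 29514142 (18.4) and at 120034616 to 120034854 (15.2), and on chromosome 2 at 122465744 to 122465842 (14.5). Their nearest p300 summits were 17482, 1430, 9977 and 5462 bp away. All 4 met a Lim1 peak and none met TLE, unlike most of the 708 above. Otx2 and Lim1 share an input library, and its part in these peaks was not tested. The first 3 also met Gsc.

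At the other extreme, the Otx2 peaks farthest from any p300 summit were both of the smallest width, 66 bp. One on chromosome 8 at 33677229 to 33677294 lay 124218 bp from the nearest summit, and one on chromosome 2 at 103418600 to 103418665 lay 123347 bp from it. Neither met any other list. The strongest p300 peaks without Otx2 likewise met none of the other 5 lists. They had p300 folds of 40.2 on chromosome 5 at 110208138 to 110208335, 39.2 on chromosome 3 at 126129398 to 126129563, and 37.9 and 37.3 on chromosome 4 at 51571585 to 51571781 and at 102893930 to 102894112. Each had a single summit, and the nearest Otx2 peaks were 5842, 514, 8992 and 5380 bp away.

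The 10 chromosomes were alike in these measures. The share of Otx2 peaks with p300 ran from 49.97% on chromosome 6 to 53.1% (51.9 to 54.4) on chromosome 10, and the share of summits in the middle part from 37.3 to 39.9%. Inside Otx2 peaks the density ran from 3.23 to 3.42 summits per kb. Chromosome 10 was the densest in both lists, with 156 Otx2 peaks and 180 p300 summits per Mb up to its last Otx2 peak, against 122 and 131 on chromosome 7. It also had the shortest median distance from Otx2 peaks without p300 to a summit, 2686.5 bp, against 3312 bp on chromosome 7.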

How the data were processed

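The files are peak lists, 1 per antibody library. The submitters' processing notes name MACS2 and deepTools and give no version of either. The sources used here do not name an aligner, a genome build or read filters. Each deposited line holds a fold enrichment (a ratio to the local background), a −log10 p and a −log10 q. The score column, as deposited, equals the −log10 q times 10, cut to a whole number (largest difference 1). The authors also deposited summit offsets in the narrow-layout lists. Fold and q are the authors' values and were used only to describe, rank or filter peaks within a list.

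From these, lines on chromosomes were reduced to distinct intervals, each with its line of highest fold, and all deposited summits were kept. Peaks met when they shared at least 1 bp. Distances run from the Otx2 edge to the summit. Classes of width and fold use quantile edges at every 10%. Shares have Clopper-Pearson 95% intervals, medians order-statistic intervals and densities exact Poisson intervals. No test was made, since peaks of 1 library are not replicates. The gene table supplied (UCB_Xtro_10.0) ends over 1 Mb away from the last peak on 10 of 10 chromosomes, so it was not used. Interval arithmetic was tested on simulated data. Regions were named by these rules: the 6 Otx2 peaks whose lower percentile of Otx2 and p300 fold was highest, the 3 with most summits, the 4 of highest fold without p300, the 2 farthest from a summit, and the 4 p300 peaks of highest fold without Otx2. The comparison, lists and rules were chosen with earlier results of these data known. Alternatives changed the overlap rule, thresholds, summits, sequences, distances and classes, and left out each chromosome. Python 3.11.15, numpy 2.4.6, pandas 2.3.3, scipy 1.17.1 and matplotlib 3.10.9 were used.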

Additional observations from a re-analysis of the deposited data

How the results depend on the processing

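No paired analysis was possible because there is a single library for every antibody. Shares are given below as percentages. Leaving out each chromosome in turn kept 98 of 100 values within the interval of the reported one. The ranges were 50.8 to 51.0 for Otx2 peaks with p300, 59.6 to 59.96 for p300 peaks with Otx2, 38.7 to 38.9 for the middle part, 19.9 to 20.2 and 89.5 to 89.9 for the narrowest and widest classes, 1.83 to 1.85 summits per widest peak, 3091 to 3127 bp for the median distance, 0.437 to 0.441 for rho, and 24.1 to 24.7 and 6.84 to 7.12 for H3K27ac with and without p300. Of 61 other values, 7 stayed within that interval and 54 did not, and the cause was not tested beyond the construction of each setting. With a summit required inside the Otx2 peak, the share with p300 was 46.7, 13.7 in the narrowest class, the median distance 2681.5 bp, and H3K27ac 25.3 with and 7.65 without p300. When peaks had to share 50% of the shorter one, the shares were 48.8 and 56.8, the classes 18.1 and 89.2, the distance 2888.5 bp, and H3K27ac without p300 7.46. With both lists at a −log10 q of at least 10, 74.9 of Otx2 and 13.9 of p300 peaks met, the middle part held 49.0, the narrowest and widest classes, recut within the 8897 Otx2 peaks left (74 to 133 and 531 to 1824 bp), were 50.5 and 96.5, with 2.10 summits per widest peak, a distance of 7185 bp, rho of 0.444, and H3K27ac 39.0 and 7.71. With the 50% of p300 peaks of highest fold these were 33.1, 74.3, 39.5, 9.31, 74.6, 1.47, 5612 bp, 0.314, 28.3 and 9.71, in the same order. With 1 summit per interval, the middle part held 40.8 and the widest peaks 1.14 summits. With scaffolds kept, the share of Otx2 peaks with p300 was 51.7, the middle part 38.3, the narrowest class 20.7, summits per widest peak 2.00335, the distance 2911 bp (over Otx2 peaks with a summit on their sequence), rho 0.460, and H3K27ac 27.5 and 8.28. The distance was 3041.5 bp to the p300 interval edge and 3173 bp from the Otx2 midpoint. In classes of Otx2 fold the lowest and highest shares were 27.5 and 86.4, with 1.17 summits per peak. The middle part held 46.1 in peaks with exactly 1 summit and 34.5 in peaks at least as wide as the median. Chosen after seeing the data were a −log10 q of at least 10 for the Otx2 list alone, with 92.0 meeting p300 and H3K27ac 33.5 and 4.24, and leaving out peaks of the smallest width, with 55.5, 57.04 and, in the narrowest class, recut above 66 bp, 31.4. H3K27ac was more frequent with p300 than without, and the widest class had more p300 than the narrowest, in every setting run for them. Peaks of weak signal can be missed in either list, so a peak without p300 is one where none was listed at this depth and cut-off.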

Other observations

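Around narrow Otx2 peaks, p300 summits were sparser at 150 to 200 bp from the Otx2 centre than at 250 to 300 bp. For Otx2 peaks of 78 to 94 bp the density was 0.150 summits per kb at 150 to 200 bp and 0.256 per kb at 250 to 300 bp. For peaks of 66 bp it was 0.153 and 0.215 per kb. At 1000 to 1500 bp it was 0.201 per kb for peaks of 78 to 94 bp. For those of 66 bp it was 0.151 per kb there, close to the value at 150 to 200 bp. For Otx2 peaks of 268 to 354 bp it was 0.289 per kb at 250 to 300 bp, 0.453 per kb at 350 to 400 bp and 0.336 per kb at 500 to 600 bp. This pattern was noticed in the plotted profiles.

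Summits lay slightly more often toward lower coordinates. Of the summits inside Otx2 peaks, 51.2% (50.9 to 51.5) lay on the side of the centre with the lower coordinates, and of lone summits 51.6% (51.2 to 52.0). Within their own p300 peaks, 53.0% (52.8 to 53.2) of all 179988 p300 summits did so.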
